A study of Homo sapiens and Mus musculus with 10 samples.

Results

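The nuclear-encoded subunits of oxidative phosphorylation were represented by 68 protein-coding genes among the 63140 gene rows of the human expression table. They were picked by gene symbol and not by a measured value, although earlier results of these data were known at the choice. There were 37 NDUFA, NDUFB, NDUFC, NDUFS and NDUFV genes of complex I, 4 SDH genes of complex II and 8 UQCR genes of complex III. Complex IV had 10 COX genes, and complex V had 9 ATP5F1 and ATP5P genes. NDUFA4 was counted with complex I by its symbol, although its protein is a subunit of complex IV. The cells were A375, an established human melanoma line, either left untreated (Ctrl, n = 3) or given LL-37 at 80 µg/mL (n = 3), and RNA was sequenced after 24 h. LL-37 is an antimicrobial peptide that human cells make by cleaving cathelicidin. The series text calls the 3 libraries of a condition biological triplicates, and all 6 come from the same cell line. The mouse skin libraries of the series were not used here.

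As background, oxidative phosphorylation is carried out in the inner mitochondrial membrane. Complexes I and II pass electrons from NADH and succinate to ubiquinone, complexes III and IV pass them on through cytochrome c to oxygen, and complex V, the ATP synthase, uses the proton gradient that complexes I, III and IV build. Most subunits are encoded in the nucleus and imported, while a small core is encoded by mitochondrial DNA, so that each complex except complex II is assembled from the products of both genomes. Melanoma cells differ widely in how far they rely on this system or on glycolysis.

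Levels were deposited in TPM, which divide each gene by its length and give every library the same total. TPM keep no record of read number, so depth is unknown and counting error could not be estimated. All 68 genes passed the filter of at least 1 TPM in at least 3 libraries, as did 14399 genes in all. Their mean level over the 6 libraries ran from 12.9 TPM (NDUFV3) to 1222 TPM (UQCRH), with a median of 167.6 TPM against 11.6 TPM over all genes tested. Together they made up 1.64% to 1.76% of TPM in 5 libraries and 2.09% in LL-37 replicate 3. That library stood apart: its correlation with the others over all tested genes was 0.949 to 0.963, where each of the others reached at least 0.988 with another library, and 12991 genes reached 1 TPM in it, where 14304 to 14555 did so in the others. Differences between the groups are therefore given with and without it. The neural crest factor SOX10, a marker of melanocytic cells, was at 147 to 387 TPM, while the pigment genes TYR and MLANA were at 0 to 0.02 TPM. The labels' extraction protocol names keratinocytes as the starting material. The keratinocyte markers TP63, DSG3 and KRT1 were listed at 0 in every library, and the summed level of the 3 of 8 markers that passed the filter, most of it KRT10, was 28.8 to 30.0 TPM in Ctrl and 21.3 to 26.7 TPM with LL-37. The part of these markers in the results below was not tested.

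No subunit gene changed past the threshold with LL-37. None of the 68 had an adjusted p under 0.05 with all libraries (limma, smallest adjusted p = 0.739; 0% of all genes tested) or without LL-37 replicate 3 (smallest adjusted p = 0.374; 0.118% of all genes tested). An unadjusted p under 0.05 was reached by 0 members with all libraries, against 0.66% of all genes higher and 1.86% lower (2.52% in all), and by 4 without LL-37 replicate 3 (5.88% of members against 9.01% of all genes). Those 4 were NDUFB8, which was higher (1.47% of members against 4.92% of genes), and UQCRH, COX6B1 and ATP5PD, which were lower (4.41% against 4.1%). In bulk RNA, fewer cells with these transcripts and less of them per cell cannot be told apart.

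The sign of the differences turned with LL-37 replicate 3. With all libraries, 45 of 68 log2 differences (LL-37 minus Ctrl, on the log2(TPM + 1) scale) were above 0 and 23 below, while 19.7% of all genes were above 0 and 80.3% below. Without that library, 23 were above and 45 below, against 48.7% and 51.3% of all genes. The split also moved with the scaling of the full set: 65 above and 3 below with median-of-ratios scaling, 51 and 17 with quantile normalization, and 26 and 42 with each library's trend on transcript length removed. The median difference of the members was 0.05 against -0.20 over all genes, and -0.03 against -0.00 without LL-37 replicate 3. An absolute difference of at least 0.25 was seen in 7 members (10.3%, against 45.5% of all genes) and, without LL-37 replicate 3, in none (0%, against 13.2%).

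The intervals of the differences were taken for each gene alone on the deposited TPM scale, and do not cover the choice of scaling. Median-of-ratios scaling moved the median of the members from 0.05 to 0.30. With all libraries, the 95% intervals per gene reached from -0.90 to 1.11 over the 68 members, every one of them held 0, and 45 lay within 0.5 on either side of 0. Without LL-37 replicate 3 they reached from -0.35 to 0.34, 64 held 0, and all 68 lay within 0.5. The differences themselves then ran from -0.17 (UQCR10) to 0.14 (ATP5F1D).

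**Figure D1:**
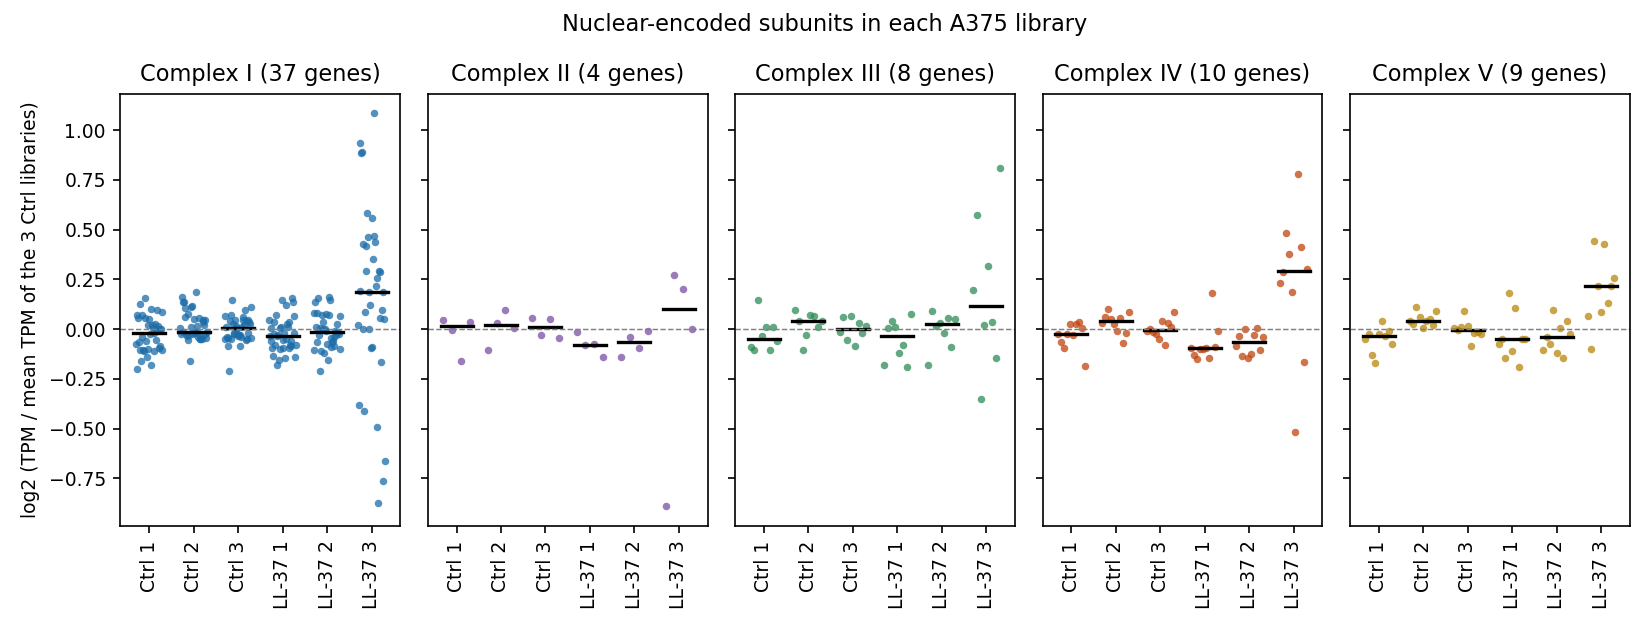
Each point is the log2 ratio of 1 gene's TPM in a library to its mean over the 3 Ctrl libraries, with 1 panel per complex and the 6 A375 libraries on the x axis; black bars are medians and the dashed line marks the Ctrl mean. The points of LL-37 replicate 3 spread widely to both sides, and those of the other 5 libraries stay near 0.

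The upstream sequence of the genes was read because the promoters of this system are known to share sites for the activators NRF-1 and GABP and for YY1. RefSeq promoter windows of GRCh38.p14 (250 bases before to 50 bases after the start of the gene, 300 bases in all) matched 57 of the 68 genes. ATP5F1B, ATP5F1D, COX6C, NDUFA4, NDUFB5, NDUFB9, NDUFC2, NDUFS5, SDHC and UQCRB were among those with no entry. The NRF-1 motif, GCGCA and GCGC with 1 base of any kind between them, was found on either strand in 14 windows. This was 24.6% against 6.28% of 27305 promoters, 1 window per gene symbol. The 27305 take in genes that did not pass the filter, and the shares among tested genes alone were not measured. The letters CCGGAAG, the core bound by ETS factors such as GABP, were found in 17 windows (29.8% against 10.7%), and AAGATGGCG (YY1) in 8 (14% against 1.85%). In all, 33 windows held at least 1 of the motifs (57.9% against 17%), and SDHD and UQCR11 held both the NRF-1 and the ETS letters. The windows follow RefSeq starts, which differ from the GENCODE gene coordinates given elsewhere. By the latter, the stretches of NDUFA11, UQCRH and UQCRQ and the last of SDHA lie inside the gene. Those of COX5B and SDHD reach into it. The following stretches are shown for genes on which the results turn, each along the strand of its gene with the motif in capitals.
NDUFB7, ETS, chr19:14572073-14572101, minus strand: gcctaaatgacCCGGAAGctgtgtctgac
NDUFA11, NRF-1, chr19:5903869-5903898, minus strand: ccggtccccgGCGCGTGCGCgcgatccatg
UQCRQ, ETS, chr5:132866577-132866605, plus strand: aatggtatctcCCGGAAGttacctcacga
UQCRH, ETS, chr1:46303641-46303669, plus strand: agtgtgccgcaCTTCCGGccagatcgccg
ATP5PD, ETS, chr17:75047053-75047081, minus strand: ccgggaagataCTTCCGGaaccagccctc
COX5B, ETS, chr2:97646014-97646042, plus strand: gaagcccgcccCCGGAAGtccctcctgtc
SDHD, NRF-1, chr11:112086753-112086782, plus strand: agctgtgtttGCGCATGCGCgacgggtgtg
SDHA, NRF-1, chr5:218144-218173, plus strand: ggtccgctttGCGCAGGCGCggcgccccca
SDHA, NRF-1, chr5:218193-218222, plus strand: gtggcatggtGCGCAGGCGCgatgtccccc
SDHA, NRF-1, chr5:218242-218271, plus strand: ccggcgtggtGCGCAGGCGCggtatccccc
The ETS letters in UQCRH and ATP5PD and the NRF-1 letters in NDUFA11 read as the reverse complement along the gene. A match describes the letters in these windows and not binding in A375 cells. The genes with the motifs lay close to the genes without them in their differences. With all libraries the median was 0.05 with NRF-1 letters and 0.05 without, 0.06 with ETS letters and 0.05 without, and 0.06 with YY1 letters and 0.05 without. Without LL-37 replicate 3 the median was -0.02 with NRF-1 letters (14 genes) and -0.03 without (43), -0.06 with ETS letters (17) and -0.02 without (40), and -0.00 with YY1 letters (8) and -0.04 without (49). Median levels were further apart: genes with ETS letters had a median of 319.7 TPM against 128.8 TPM without, and genes with NRF-1 letters 96.6 TPM against 207.9 TPM.

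Complex I, the NADH dehydrogenase, had 37 members with a median difference of 0.06, or -0.01 without LL-37 replicate 3 (16 above 0 and 21 below). Their summed level was 6362, 6756 and 6487 TPM in Ctrl and 6362, 6529.8 and 8619.5 TPM in LL-37 replicates 1, 2 and 3, so that LL-37 replicates 1 and 2 lay within or at the lower edge of the Ctrl range and replicate 3 above it. The 7 catalytic core subunits of the peripheral arm, which bind FMN and the iron-sulfur clusters, were the group with the lowest median in complex I with all libraries, at -0.06, and stood at -0.02 without LL-37 replicate 3. The 9 accessory subunits of that arm had medians of 0.05 and -0.02, and the 20 accessory subunits of the membrane arm 0.07 and -0.00.

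Among the core subunits, NDUFV1, which binds NADH and FMN, was at 149, 146 and 151 TPM in Ctrl and at 147, 146 and 87.7 TPM with LL-37, so that the groups overlapped except for replicate 3. Its difference was -0.27 ± 0.21 (SE), and -0.02 ± 0.06 without LL-37 replicate 3. NDUFS7, the carrier of the last iron-sulfur cluster before ubiquinone, was at 68.8, 69.8 and 67.9 TPM in Ctrl and at 75.6, 70.02 and 73.6 TPM with LL-37. It was among 4 members whose LL-37 values all lay above all Ctrl values, and was named for that reason after its values were seen.

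Among the accessory subunits of the peripheral arm, NDUFA2 was at 139, 164 and 145 TPM in Ctrl and at 136, 158 and 277 TPM with LL-37, within the Ctrl range or just below it except in replicate 3. Its difference was 0.28 ± 0.26, and -0.02 ± 0.09 without that library. NDUFA5 was at 42.3, 39.6 and 39.0 TPM in Ctrl and at 38.2, 34.8 and 30.3 TPM with LL-37, with no overlap and the lowest value in replicate 3. Its difference was -0.23 ± 0.14, and 0.02 with median-of-ratios scaling. NDUFV3, the least abundant member, was at 12.8, 13.7 and 14.9 TPM in Ctrl and at 13.05, 14.4 and 8.71 TPM with LL-37.

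The accessory subunits of the membrane arm held the widest gaps in LL-37 replicate 3. NDUFB7, on the intermembrane space side of the arm (chromosome 19, 14566078 to 14572062, GRCh38), was at 337, 434 and 374 TPM in Ctrl and at 346, 427 and 810.0 TPM with LL-37. LL-37 replicates 1 and 2 lay inside the Ctrl range, and replicate 3 was above 2 times the mean of the other 5 libraries (2.11). The difference of 0.37 ± 0.31 became 0.02 ± 0.12 without it. NDUFA13, the most abundant complex I member, was at 831, 953 and 819.5 TPM in Ctrl and at 814, 831 and 1602 TPM with LL-37, and NDUFA11 was at 285, 366 and 330.0 TPM in Ctrl and at 329, 360.2 and 627 TPM with LL-37. For both, only replicate 3 lay outside the range of the other libraries by a wide margin, and the differences of 0.25 ± 0.26 and 0.37 ± 0.25 became -0.07 ± 0.07 and 0.08 ± 0.10 without it.

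A different pattern was seen in NDUFB8, a membrane arm subunit whose protein is lost when complex I is not assembled (chromosome 10, 100523740 to 100530000). It was at 289, 287 and 277 TPM in Ctrl and at 309.8, 315 and 394 TPM with LL-37. Every LL-37 library lay above every Ctrl library, replicate 3 furthest. Its difference was 0.25 ± 0.12, and 0.13 ± 0.05 without replicate 3 (limma, adjusted p = 0.739 and 0.496). NDUFB3, a neighbour in the membrane arm, was at 86.5, 83.6 and 85.4 TPM in Ctrl and at 94.1, 89.7 and 79.7 TPM with LL-37, where replicates 1 and 2 lay above Ctrl and replicate 3 below it. NDUFB4, also in the membrane arm and named after its values were seen, was at 182 to 193 TPM in Ctrl and at 175 to 179.8 TPM with LL-37, without overlap and by a small margin.

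Complex II, the succinate dehydrogenase shared with the tricarboxylic acid cycle, had a median difference of -0.02 over its 4 genes, and without LL-37 replicate 3 all 4 were below 0 (-0.08 to -0.06). SDHA, the flavoprotein that oxidises succinate (chromosome 5, 218241 to 256700), was at 55.2, 49.6 and 55.4 TPM in Ctrl and at 52.9, 48.4 and 28.8 TPM with LL-37. The first pair of LL-37 values lay near the Ctrl range and replicate 3 far below it, at 0.551 times the mean of the other 5 libraries, the lowest ratio of the 68 members. Its difference was -0.34 ± 0.24, and -0.07 ± 0.08 without that library. The other 3 subunits did not share this low value in replicate 3. SDHB, which holds the iron-sulfur clusters, was at 161, 166 and 159 TPM in Ctrl and at 153, 157.5 and 195 TPM with LL-37. The membrane anchors SDHC and SDHD were at 206 ± 19.1 and 41.5 ± 1.17 TPM in Ctrl (SD, n = 3) and at 208 ± 24.5 and 40.1 ± 2.16 TPM with LL-37.

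Complex III, the cytochrome bc1 complex, had a median difference of 0.01 both with and without LL-37 replicate 3. UQCRH, the hinge protein that lies beside cytochrome c1 (chromosome 1, 46303631 to 46316776), had the highest level of all members, at 1290.4, 1293 and 1264 TPM in Ctrl and at 1123, 1204 and 1159 TPM with LL-37. Each LL-37 library lay below each Ctrl library, and replicate 3 lay between the other LL-37 libraries. Its difference was -0.14 ± 0.08 with that library and -0.14 ± 0.05 without (limma, adjusted p = 0.739 and 0.443). The direction turned with median-of-ratios scaling, where the difference was 0.11 and the median of all genes 0.01, against -0.20 before. Its near-identical copies, UQCRHL among them, stood at 15.0% of its level, and reads may have been split between them. The sum of gene and copies was 1483, 1463 and 1487 TPM in Ctrl and 1277, 1396 and 1324 TPM with LL-37, again without overlap.

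UQCRQ, a small subunit near cytochrome b, was at 383, 412 and 405 TPM in Ctrl and at 422, 414 and 701 TPM with LL-37, with replicate 1 and 2 just above Ctrl and replicate 3 far above. Its difference was 0.31 ± 0.21, and 0.06 ± 0.05 without replicate 3. UQCR10 was at 43.4, 49.2 and 45.7 TPM in Ctrl and at 40.7, 40.7 and 52.8 TPM with LL-37, below Ctrl in replicates 1 and 2 and above it in replicate 3. UQCRFS1, the Rieske iron-sulfur protein and the least abundant member of the complex, was at 29.97 ± 1.82 TPM in Ctrl and 30.1 ± 1.46 TPM with LL-37 (SD, n = 3), with no gap in replicate 3. The core proteins UQCRC1 and UQCRC2 were at 174 ± 6.84 and 107.7 ± 5.91 TPM in Ctrl and at 177 ± 1.33 and 113 ± 18.5 TPM with LL-37.

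Complex IV, cytochrome c oxidase, showed the widest turn between the 2 sets of libraries. Its median difference of 0.06 became -0.09 without LL-37 replicate 3, where 9 of 10 members were below 0 and COX7B was above it. The summed level was 5449.6, 5700.0 and 5523 TPM in Ctrl and 5213, 5296 and 6710 TPM with LL-37, so that LL-37 replicates 1 and 2 lay below every Ctrl library and replicate 3 above. Leaving out replicate 3 sets 3 Ctrl libraries against 2, and the smallest adjusted p of the complex in that fit was 0.535 in limma (COX6B1).

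Within complex IV, COX6A1 had the highest level, at 885, 933 and 884 TPM in Ctrl and 841, 900.4 and 1169 TPM with LL-37. LL-37 replicate 2 lay within the Ctrl range and replicate 3 above it. COX7C, a small membrane subunit (chromosome 5, 86617904 to 86620962), was at 892, 876 and 894 TPM in Ctrl and at 834, 825 and 790.3 TPM with LL-37. It was named after its values were seen, because the groups did not overlap and replicate 3 was on the same side as the other LL-37 libraries. Its difference was -0.12 ± 0.08, and -0.10 ± 0.05 without replicate 3 (limma, adjusted p = 0.739 and 0.615). COX6C was at 265, 269 and 279 TPM in Ctrl and at 254, 249 and 189 TPM with LL-37, also below Ctrl in every library. Its difference was -0.24 ± 0.14, and 0.01 with median-of-ratios scaling.

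COX6B1, which faces the site where cytochrome c docks, was at 726, 725 and 688 TPM in Ctrl and at 666, 644 and 812 TPM with LL-37. COX5B, a zinc-binding subunit on the matrix side, was at 231, 264 and 244 TPM in Ctrl and at 222, 225 and 344 TPM with LL-37. In both, LL-37 replicates 1 and 2 lay below Ctrl and replicate 3 above, and the difference went from -0.02 ± 0.11 and 0.07 ± 0.19 with all libraries to -0.12 ± 0.05 and -0.14 ± 0.07 without replicate 3. COX7B, the least abundant member, was at 61.2, 57.01 and 61.1 TPM in Ctrl and at 67.9, 59.9 and 79.7 TPM with LL-37, so that replicate 2 overlapped with Ctrl. The isoform genes of other tissues were near absent: COX4I2, COX6A2 and COX7A1 were listed at 0 in all 6 libraries, and COX6B2 was at most at 0.1 TPM.

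Complex V, the ATP synthase, had a median difference of 0.06, and -0.04 without LL-37 replicate 3, where 7 of 9 members were below 0. Its 5 subunits of the catalytic F1 head had medians of -0.04 and -0.09, and the 4 of the peripheral stalk, which holds the head in place, 0.07 and -0.02. ATP5F1B, the catalytic beta subunit and the most abundant member, was at 664, 689 and 674 TPM in Ctrl and at 653, 659 and 631 TPM with LL-37, without overlap. Its difference was -0.06 ± 0.08, or -0.04 ± 0.05 without replicate 3, and 0.19 with median-of-ratios scaling of all libraries. ATP5F1D, the delta subunit of the central stalk, was at 91.01, 107 and 109.2 TPM in Ctrl and at 116, 109.3 and 119 TPM with LL-37. The highest Ctrl and lowest LL-37 value were almost equal, and its difference was 0.17 ± 0.12, or 0.14 ± 0.09 without replicate 3.

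ATP5PD, subunit d of the peripheral stalk (chromosome 17, 75038863 to 75046985), had the smallest adjusted p of all members without LL-37 replicate 3. It was at 302, 321 and 305 TPM in Ctrl and at 271, 279.9 and 339.6 TPM with LL-37, where replicates 1 and 2 lay below every Ctrl library and replicate 3 above. The difference of -0.07 ± 0.12 became -0.17 ± 0.05 without replicate 3 (limma, adjusted p = 0.788 and 0.374). ATP5F1E, the least abundant member, was at 70.1, 71.4 and 72.02 TPM in Ctrl and at 65.95, 65.4 and 75.6 TPM with LL-37, with replicates 1 and 2 again below Ctrl and replicate 3 above.

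**Figure D2:**
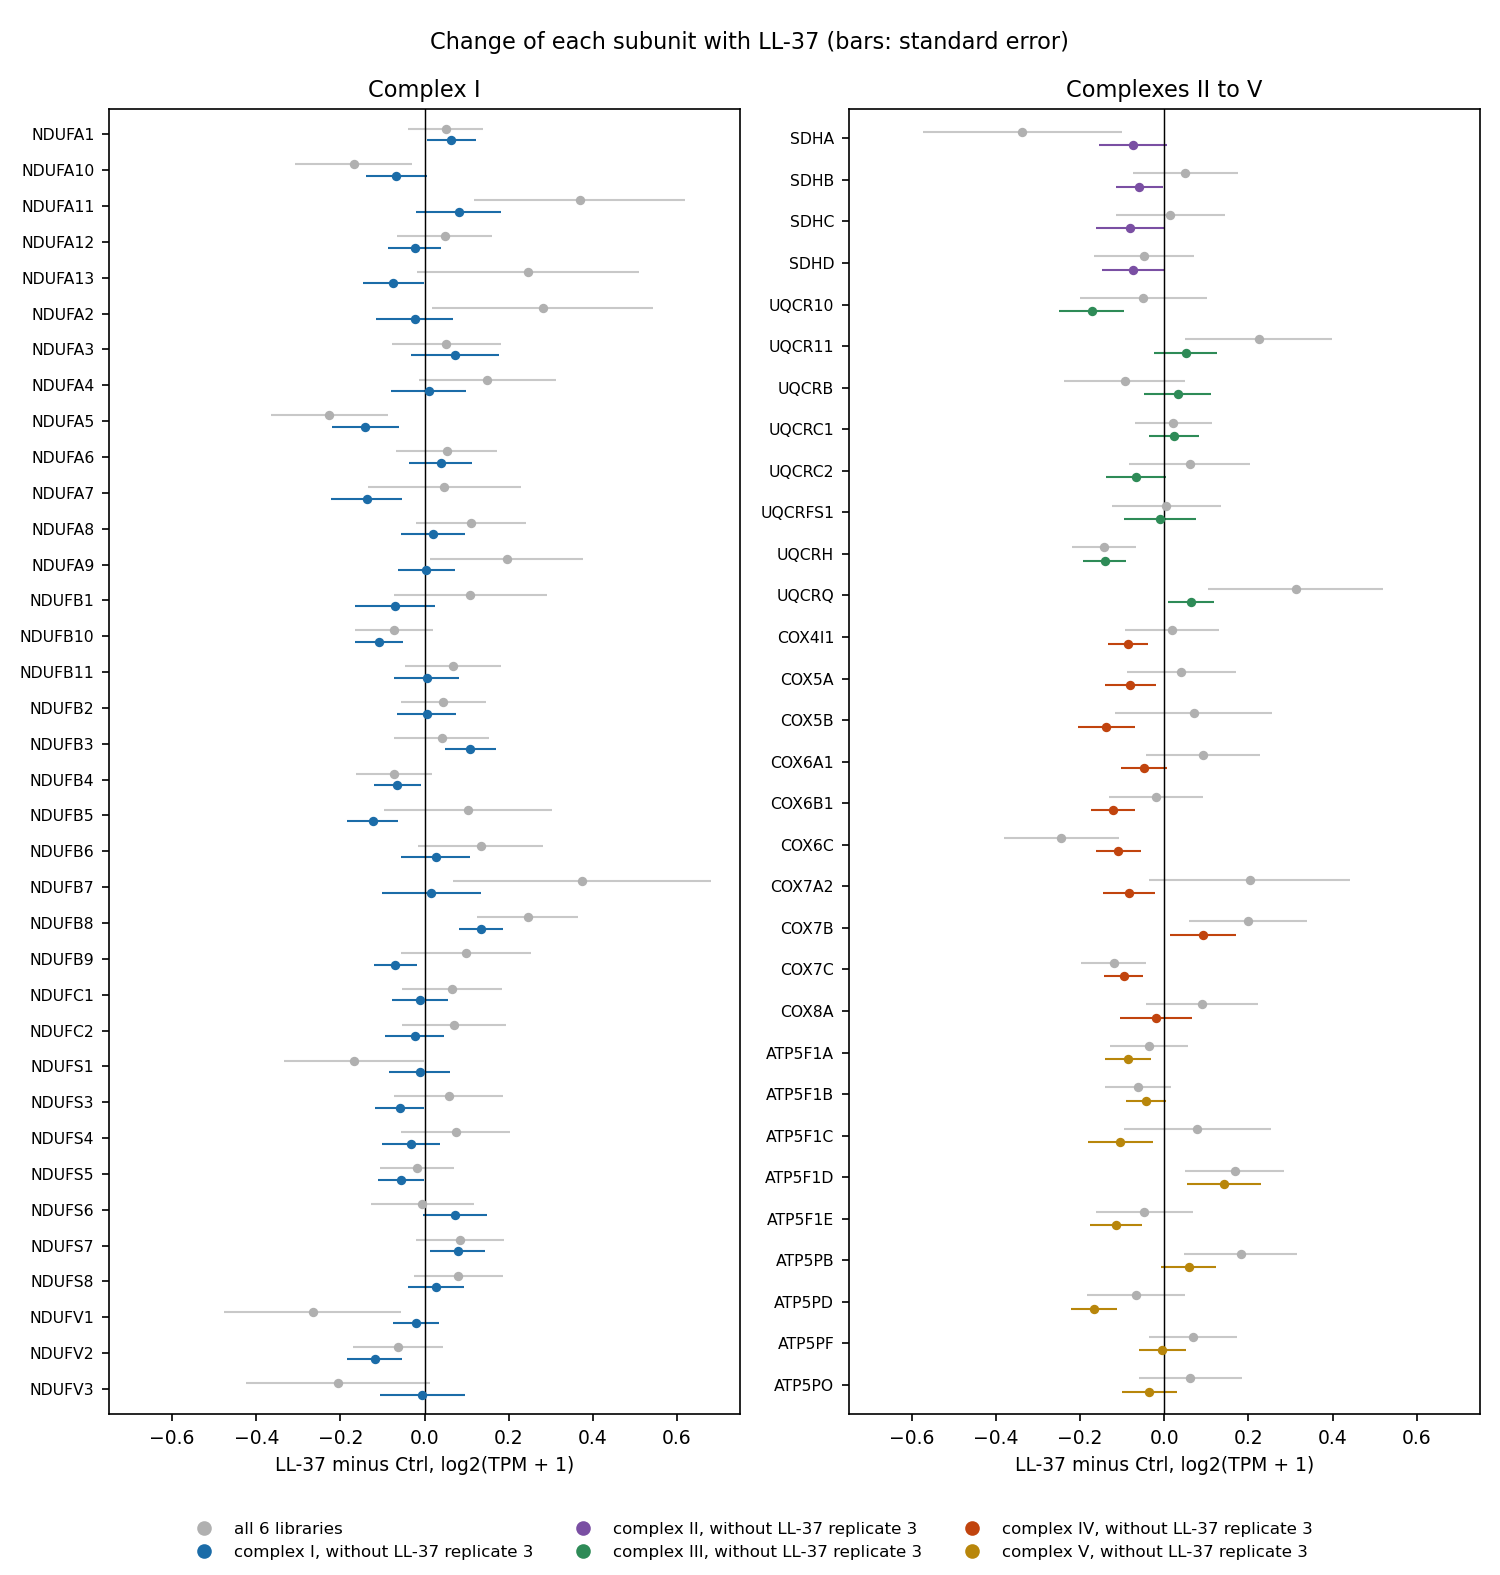
Points are the LL-37 minus Ctrl difference of each gene on the log2(TPM + 1) scale, with complex I on the left and complexes II to V on the right; bars are the standard error from limma, grey for all 6 libraries and coloured for the fit without LL-37 replicate 3. 1 member is not shown. Without that library every difference shown lies between -0.17 and 0.14, and with it they range from -0.34 to 0.37.

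Groups that did not overlap were counted over all 68 members. With all libraries, 4 members were higher in every LL-37 library than in every Ctrl library (NDUFB8, NDUFS7, UQCRQ and ATP5F1D; 5.88% against 2.13% of all genes), and 7 were lower (among them NDUFA5, NDUFB4, UQCRH, COX6C, COX7C and ATP5F1B; 10.3% against 10.3% of all genes). Median-of-ratios scaling moves all genes of a library by the same factor, and with it 5 members were higher and 1 lower in this way, against 6.06% and 6.55% of all genes. Without LL-37 replicate 3, 5 were higher (7.35% against 12.3%) and 20 were lower (29.4% against 12.9%). The 20 included COX4I1, COX5B, COX6B1, COX6C and COX7C of complex IV and ATP5F1A, ATP5F1B, ATP5F1E and ATP5PD of complex V. The 7 lower members with all libraries were all among the 20, as their values with replicate 3 left out require.

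In LL-37 replicate 3 most members were high where most genes were low. It was the highest of the 6 libraries for 45 members (66.2%, against 10.4% of all genes) and the lowest for 14 (20.6%, against 73.5%). The ratio of its TPM to the mean of the other 5 libraries had a median of 1.16 over the members and 0.597 over all genes tested. It was at least 1.25 for 21 members (30.9%, against 7.01% of all genes) and at most 0.8 for 9 (13.2%, against 70.4%). Among those 9 were NDUFA10, NDUFA5, NDUFS1, NDUFV1, NDUFV3, SDHA, UQCRB and COX6C. The 5 highest ratios were those of NDUFB7, NDUFA13, NDUFA11, NDUFA2 and COX7A2. The 76 mitochondrial ribosomal protein genes had a median ratio of 1.14, and LL-37 replicate 3 was the highest library for 48. Among 15 further subunits that passed the filter the median ratio was 1.26, with 12 highest in that library. Median ratios were 1.05 for the assembly factors of complexes II to V and 0.926 for those of complex I. They were 0.762 for tricarboxylic acid cycle and pyruvate entry genes and 0.646 for biogenesis regulators.

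Transcript length moved with that library. The members' longest annotated transcripts had a median length of 1407 bases, against 3363 bases over all tested genes with a length. Across 13878 genes the deviation of LL-37 replicate 3 from the other 5 libraries correlated with log2 transcript length at r = -0.50, and across the 68 members at r = -0.31 (Spearman rho = -0.25). With the log2 mean level in TPM it correlated at r = 0.10 across 13878 genes and at r = 0.34 across the members (Spearman rho = 0.27). These are descriptions across genes that share the same libraries, and genes are not independent replicates. The median ratio was 1.20 for the 23 shortest members (507 to 1098 bases) and 1.16 for the 22 of middle length. It was 1.13 for the 23 longest (2406 to 13566 bases). These classes rest on the longest transcript, which can be far from the coding ones: SDHC had 13566 bases against a median of 460 over its coding transcripts. With log2 median coding transcript length, the deviation of LL-37 replicate 3 correlated at r = -0.32 across the members (Spearman rho = -0.24). Across 11997 genes it did so at r = -0.41. Classes by coding length were not formed. With the length trend of each library removed, the median difference of the members was -0.08, which lay 0.12 above that of all genes. The parts of length and level in the members' values were not tested beyond these numbers.

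**Figure D3:**
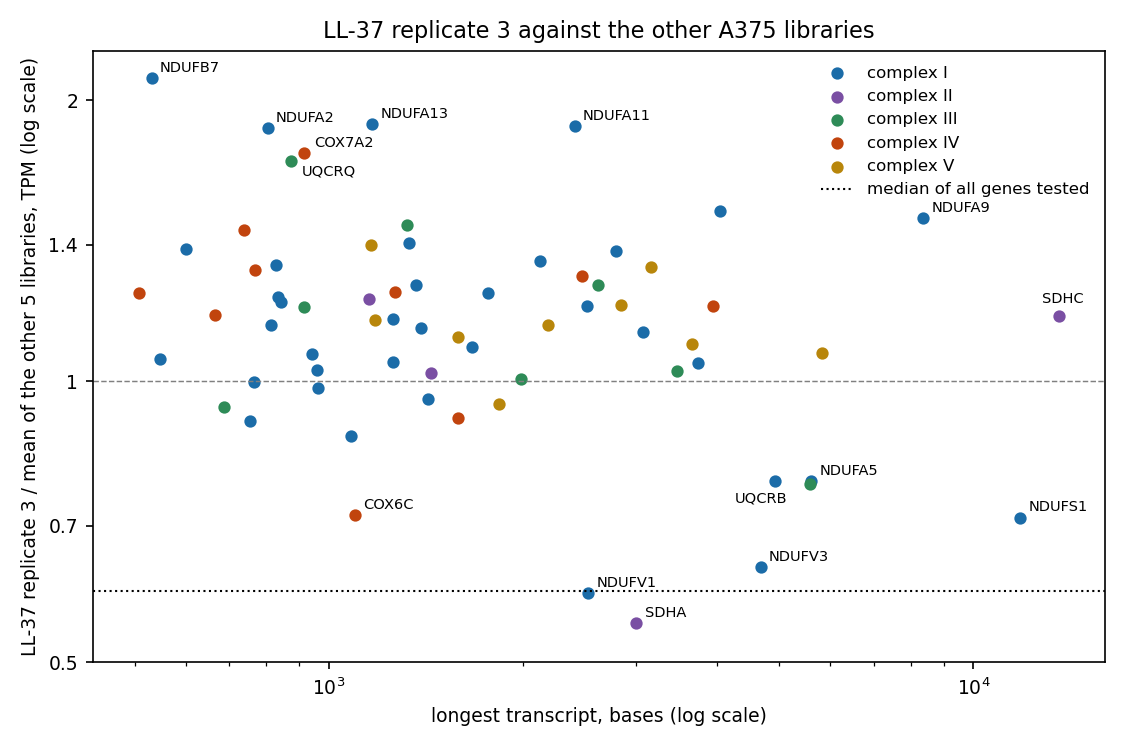
Each point is 1 gene (1 member is not shown), with the length of its longest transcript on a log x axis and the ratio of its TPM in LL-37 replicate 3 to the mean of the other 5 libraries on a log y axis; the dashed line is a ratio of 1 and the dotted line the median of all genes tested (0.597). Most points lie above 1, while several of the longest transcripts lie below it, and SDHA (0.551) and NDUFV1 lie near the dotted line.

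The summed nuclear and mitochondrial parts of the system lay on opposite sides of Ctrl in each LL-37 library, narrowly for the nuclear sum of replicate 2. The 68 nuclear genes summed to 16805, 17642 and 17067 TPM in Ctrl and to 16397, 16749.9 and 20888 TPM with LL-37. The 13 subunit genes of mitochondrial DNA summed to 36320.2, 33496 and 34316 TPM in Ctrl and to 42527, 39517 and 17578 TPM with LL-37. In LL-37 replicates 1 and 2 the nuclear sum lay below and the mitochondrial sum above every Ctrl library, and in replicate 3 both lay on the other side. The ratio of mitochondrial to nuclear sum was 2.16, 1.90 and 2.01 in Ctrl, 2.59 and 2.36 in LL-37 replicates 1 and 2, and 0.842 in replicate 3. The median difference of the 13 genes was -0.08, and 0.28 without replicate 3, where 12 of 13 were above 0. In that fit MT-ND6 alone passed (limma, adjusted p = 0.000793). An unadjusted p under 0.05 was reached there by 11 of the 13 higher and 1 lower, against 4.92% and 4.1% of all genes. With all libraries it was reached by 1 higher and 0 lower (0.66% and 1.86% of all genes). MT-ND6, a complex I subunit, was at 30.9, 28.1 and 21.6 TPM in Ctrl and at 144, 137.5 and 55.7 TPM with LL-37, above Ctrl in every library. MT-CO3, named after its values were seen, was below Ctrl in every LL-37 library. It was at 3297, 2978 and 3092 TPM in Ctrl and at 2854, 2609 and 1349 TPM with LL-37. The libraries were made from poly(A) RNA, per the labels' protocol, and the part of that selection in the mitochondrial levels was not tested.

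**Figure D4:**
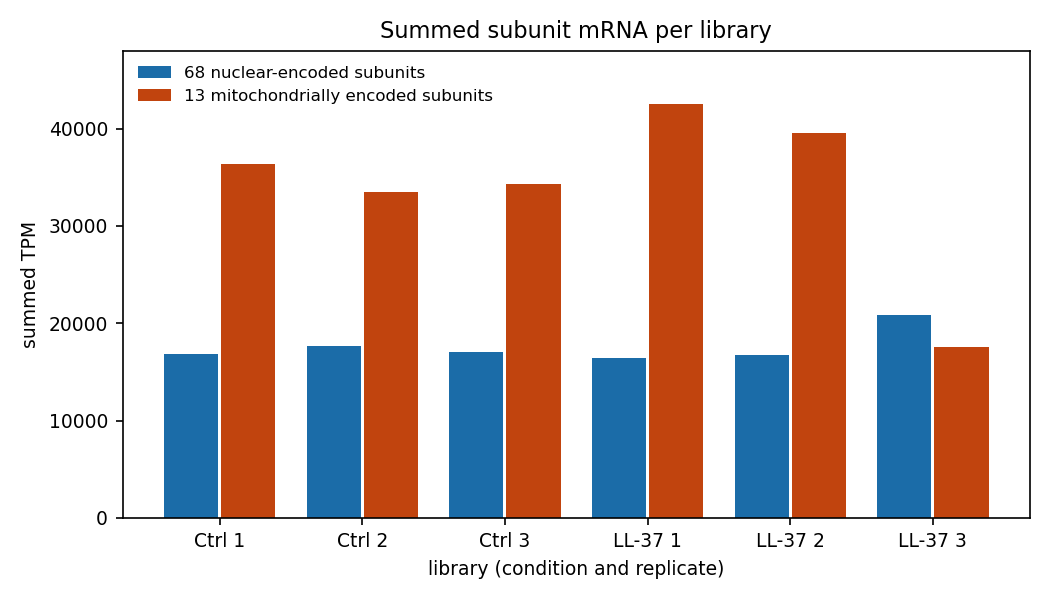
Bars give the summed TPM of the 68 nuclear-encoded and the 13 mitochondrially encoded subunit genes in each A375 library, from 0. The mitochondrial bar is the taller in 5 libraries and the shorter in LL-37 replicate 3 (17578 against 20888 TPM).

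Other nuclear genes of the system were read from lists of subunits and helpers, and none of their genes passed in limma, whichever set of libraries was used. An unadjusted p under 0.05 was reached by 1 of them with all libraries, COX15 of heme A synthesis, which was lower (2.52% of all genes in either direction). Without LL-37 replicate 3, when 4.92% of all genes were higher and 4.1% lower in this way, it was reached by 1 higher and 1 lower gene among the 15 further subunits and 3 lower among the 32 assembly factors of complexes II to V. It was also reached by 2 higher and 1 lower among the 18 biogenesis regulators and 2 lower among the 76 mitochondrial ribosomal proteins. Of 19 further subunits and isoforms, 15 passed the filter, with medians of 0.06 and, without replicate 3, -0.05 (3 above 0 and 12 below). NDUFA4L2, the paralogue of NDUFA4 known to be induced by low oxygen, was at 7.15, 8.09 and 8.44 TPM in Ctrl and at 11.8, 10.4 and 9.58 TPM with LL-37. All LL-37 values lay above Ctrl, and its differences of 0.38 ± 0.17 and 0.44 ± 0.11 (adjusted p = 0.739 and 0.249 in limma) were larger than that of any of the 68 members. NDUFA4 itself was at 55.5 ± 5.24 TPM in Ctrl and 62.1 ± 11.1 TPM with LL-37 (SD, n = 3).

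The 18 assembly factors of complex I had medians of -0.03 and -0.02, and the 32 of complexes II to V -0.04 and -0.03. With all libraries these medians lay 0.17 and 0.16 above that of all genes (-0.20), where the 68 members lay 0.25 above it. The widest differences among the assembly factors were NDUFAF5 (0.27, and 0.10 without replicate 3), which modifies NDUFS7 during complex I assembly, and COA7 (-0.43 and -0.06), a factor of complex IV assembly. The 76 mitochondrial ribosomal proteins, which make the mitochondrially encoded subunits, had medians of 0.06 and -0.00, close to those of the subunits, and MRPL54 had the widest difference (0.46, and 0.15 without replicate 3). The 18 genes of the tricarboxylic acid cycle and pyruvate entry had a median of -0.18, near that of all genes, and -0.05 without replicate 3. Citrate synthase (CS) was at 140, 128 and 139.6 TPM in Ctrl and at 133, 124 and 59.6 TPM with LL-37.

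Of 19 regulators of mitochondrial biogenesis, 18 passed the filter and PPARGC1A did not (0.13 to 0.68 TPM). Their median was -0.21, and -0.05 without replicate 3. YY1 had the widest difference, with 24.9, 21.7 and 24.2 TPM in Ctrl and 21.8, 22.2 and 9.13 TPM with LL-37. In 3 of the 18 the groups did not overlap, all lower with LL-37 (10.3% of all genes were lower in this way), and they are named for that after their values were seen: NRF1, the activator whose letters were counted above, TFB2M, and TFAM, which packages mitochondrial DNA and starts its transcription. TFAM was at 23.8, 24.4 and 23.98 TPM in Ctrl and at 19.3, 20.1 and 18.0 TPM with LL-37. Its differences were -0.32 ± 0.13, and -0.28 ± 0.08 without replicate 3 (limma, adjusted p = 0.739 and 0.286).

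Many of these genes have copies elsewhere in the genome. Of the 68 members, 44 had a copy named after them among the rows of the table, 163 copies in all. Copies reached 5% or more of the gene's own level for 3 members, SDHA (30.3%), UQCRH (15.0%) and UQCRFS1 (8.33%), and values of these 3 are uncertain to that extent. SDHA with its copies was at 71.2, 61.8 and 73.5 TPM in Ctrl and at 67.5, 65.8 and 38.6 TPM with LL-37, where replicate 3 was again the lowest.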

How the data were processed

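Libraries came from poly(A) RNA with a kit that keeps strand, per the labels' protocols. The authors deposited 1 human table of TPM for the 6 A375 libraries. The build GRCh38 is named in the submitters' processing notes. The names of the aligner and the quantification tool were not given in the sources used here. Each TPM value depends on every other gene of the library, and depth is lost.

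Libraries were grouped by title. The analysis scale was log2(TPM + 1), and a gene entered with 1 TPM or more in 3 or more libraries. Two-sided moderated tests came from limma 3.58.1 (R 4.3.3, intensity trend on), adjusted by Benjamini-Hochberg over all 14399 genes, with a threshold of 0.05. The procedure was tried on simulated data with 200 changed genes. With all libraries it recovered 51% of 2-fold and 82% of 4-fold changes, and 17 of 150 calls were false. Without LL-37 replicate 3 it recovered 96% and 100%, and 9 of 205 calls were false. Smaller changes were not simulated. The noise was drawn for each gene alone, so a shift of a whole library such as LL-37 replicate 3 was not reproduced. The members and lists were chosen with earlier results of these data known. Named members were the most and least abundant of each complex, the 5 highest and 5 lowest differences for all libraries and for the set without LL-37 replicate 3, and, in each further list, the widest difference and any gene past the threshold. The values of 1 member that this rule takes are not reported here. Other genes are said to be named after their values were seen, or belong to a count that is spelled out or to a role described in full. Coordinates and lengths came from GENCODE 29 (GRCh38), with the longest transcript per gene. A gene name table gave symbols for 62541 of the 63140 identifiers.

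The alternatives tried were a pseudocount of 0.1 or 5, the filter dropped or raised to 5 TPM, quantile normalization, median-of-ratios scaling, TPM without mitochondrially encoded genes, limma without the intensity trend, a replicate block, removal of length trends, and each library left out, also joined with the block or the length trend for LL-37 replicate 3.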

Additional observations from a re-analysis of the deposited data

How the results depend on the processing

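No member was called in limma under any of the 18 alternatives, and the smallest adjusted p of a member was 0.280, in the fit that removed length trends and LL-37 replicate 3. No named member was called in any setting. Median-of-ratios scaling moved the median of all genes from -0.20 to 0.01, the medians of the members to 0.30 overall and 0.31, 0.23, 0.26, 0.31 and 0.31 for complexes I to V, and the count of members whose groups did not overlap from 11 to 6. Quantile normalization gave medians of 0.063 for complex II and 0.11 for complex III. With length trends removed the medians were -0.083 for all members, -0.083 for complex I and -0.15 for complex II. When each library was left out in turn, members with an unadjusted p under 0.05 numbered 0 to 4, members whose groups did not overlap 12 to 25, and pathway genes called 0 to 1, and LL-37 replicate 3 was the library left out at each highest count. Shares of all genes varied too: an unadjusted p under 0.05 was reached by 0.993% to 9.01%, and the groups did not overlap for 3.16% higher and 14.2% lower at the count of 12 and for 12.3% and 12.9% at the count of 25. Removing the length trends as well gave 5, 24 and 1. In that fit 10% of all genes had an unadjusted p under 0.05, and the groups did not overlap for 13% higher and 13.6% lower. The replicate block gave 0 members called and a median of 0.05, and in the libraries other than LL-37 replicate 3 it gave counts of 3, 25 and 1. Over all genes the shares with these counts were 10.3% with an unadjusted p under 0.05, and 12.3% higher and 12.9% lower without overlap. Deviations of libraries with the same replicate number correlated at 0.09, -0.20 and -0.17, and those with other numbers at -0.21 to 0.25. Each deviation was taken from the mean of its own group, so that the outlying LL-37 replicate 3 also moved those of replicates 1 and 2. These values can therefore neither show nor exclude pairing, and the main fit did not pair the samples. The causes of these shifts were not tested.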

Other observations

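Without LL-37 replicate 3, the members' differences between LL-37 and Ctrl were related to base composition more than to length. Across the 68 genes the difference correlated with the GC content of the longest transcript at r = 0.33 (Spearman rho = 0.30) and with log2 transcript length at r = -0.01, and across 13878 tested genes with GC content at r = 0.21. The deviation of LL-37 replicate 3 from the other 5 libraries correlated with GC content at r = 0.16 across the members. These are correlations across genes of the same libraries and are given as a description. Of the 68 members, 10 overlapped another expressed gene on the same strand and 23 one on the opposite strand, and the share of their reads that came from such neighbours was not measured.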
